A study of Mus musculus with 10 samples.

Results

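The genes described here are 10 immediate early genes of the 56832 genes in the deposited count table: the AP-1 subunit genes Fos, Fosb, Fosl2, Jun, Junb and Jund, the related factor gene Atf3, and Egr1, Ier2 and Dusp1. They were taken by symbol. All 10 were found, and all 10 had enough counts to be among the 12115 genes tested. The libraries are RNA of sorted heart cells, labelled as cardiomyocytes, from 5 Sprr1a-GFP mice, reporter animals for Sprr1a whose titles carry the tag Hetz. Markers of other cell types were also counted in them, as given below. The hearts were digested by enzyme perfusion 5 days after myocardial infarction at 12 weeks of age. Each mouse gave 1 GFP+ library, labelled border zone cardiomyocytes, and 1 GFP− library, labelled remote zone cardiomyocytes. The title of each GFP+ library joins a DAPI-negative and a DAPI-positive sort, whereas each GFP− library is named for DAPI-negative cells alone. DAPI enters cells whose membrane is broken. The zone, the GFP signal and the DAPI gate therefore cannot be told apart as sources of a difference, and the labels hold no uninjured heart and no undigested tissue. The titles are worded in one way for mice 17C1 and 17C2, called the 17C series below, and in another for mice 21A4, 21A5 and 21A7, called the 21A series, and the labels do not say what the identifiers stand for.

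Immediate early genes are transcribed within minutes of a stimulus without new protein synthesis. MAP kinases act on factors such as the ternary complex factors, serum response factor and CREB at their promoters. Fos and Jun proteins then pair through leucine zippers as AP-1, which binds DNA in genes of growth, matrix turnover and stress. Egr1 is a zinc finger factor induced by the same signals, and Dusp1 removes phosphate from MAP kinases and so closes the loop. In heart muscle these genes respond to stretch, to adrenergic drive and to ischaemia with reperfusion. They also respond to enzymatic tissue digestion, and Fos, Fosb, Jun, Junb, Atf3, Egr1, Ier2 and Dusp1 are among the genes usually named as dissociation-induced. Jund is expressed more steadily than the others, and Fosl2 is induced later. Both kinds of cells went through the same digestion, and the part of digestion in any level below was not tested.

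In the data, Fos, Jun, Egr1 and Dusp1 were lower in GFP+ than in GFP− cells of the same heart in 5 of 5 mice. Of the tested genes 8.02% were lower in 5 of 5 mice. Fos, Jun and Egr1 turned positive in the 17C mice with libraries scaled to cardiomyocyte markers. That scaling put the median tested gene of these mice at 1.03 on the log2 scale, and the values of Fos, Jun and Egr1 lay below it. Fosb, Junb, Jund, Atf3 and Ier2 were lower in GFP+ in all 3 21A mice and mixed or higher in the 17C mice. In all, 9 of the 10 genes were lower in all 3 21A mice, as were 24.7% of the tested genes. Fosl2, alone among the 10, was not lower in all 3 21A mice, and its difference lay on either side of 0. None of the 10 genes passed the unpaired edgeR test over all 5 mice (adjusted p under 0.05), which 0.0825% of the tested genes passed. With the mouse as a block, 0 of the 10 passed in edgeR, against 0.858% of the tested genes. In DESeq2 0 passed unpaired, and with the block 4 (Dusp1, Egr1, Fos and Jun) fell, against 3.60% of the tested genes lower. In the 21A mice, with libraries of the same mouse paired, 6 of the 10 fell in GFP+ cells, against 4.05% of the tested genes, and 0 of the 10 passed there unpaired. In the same paired fit 6 of 7 fibroblast, 6 of 7 macrophage and 4 of 7 endothelial markers fell as well, with list medians of −1.91, −1.84 and −1.44 on the log2 scale.

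The promoters of 4 genes are shown as examples, and no link between their letters and these patterns was tested. Fos, Jun and Dusp1 stand for the genes that were lower in every mouse. Fosl2 stands for the gene that was not lower in all 3 21A mice. Fosb, Junb, Jund and Atf3, also not lower in every mouse, are not shown. The sequences are RefSeq's on GRCm38.p6, from 250 bases before to 50 after the annotated start, written 5′ to 3′ on the gene's own strand. Of the 10 genes, 8 matched the promoter table, and Egr1 and Ier2 did not. Capitals mark TGACG, the core of the cAMP response element, with the full TGACGTCA element where present, and TGACATCA, the variant known from the Jun promoter.
Fos, chr12:85473640-85473939, forward strand: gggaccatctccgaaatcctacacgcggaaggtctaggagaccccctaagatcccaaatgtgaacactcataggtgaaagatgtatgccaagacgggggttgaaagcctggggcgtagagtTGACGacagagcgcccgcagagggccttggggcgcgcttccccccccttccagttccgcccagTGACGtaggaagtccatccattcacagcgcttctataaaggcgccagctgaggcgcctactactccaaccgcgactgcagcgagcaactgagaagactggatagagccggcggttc
Jun, chr4:95052173-95052472, reverse strand: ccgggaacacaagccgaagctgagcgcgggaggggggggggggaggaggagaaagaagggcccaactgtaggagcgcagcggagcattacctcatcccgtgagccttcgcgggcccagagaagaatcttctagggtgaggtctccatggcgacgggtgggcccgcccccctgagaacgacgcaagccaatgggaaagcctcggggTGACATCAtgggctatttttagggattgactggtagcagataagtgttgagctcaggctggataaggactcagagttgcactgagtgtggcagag
Dusp1, chr17:26508423-26508722, reverse strand: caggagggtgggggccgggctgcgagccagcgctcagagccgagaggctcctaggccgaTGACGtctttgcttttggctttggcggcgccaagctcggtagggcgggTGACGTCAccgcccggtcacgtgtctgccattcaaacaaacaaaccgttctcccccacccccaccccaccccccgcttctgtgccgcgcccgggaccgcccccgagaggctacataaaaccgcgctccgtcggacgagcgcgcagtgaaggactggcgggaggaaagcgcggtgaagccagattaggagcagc
Fosl2, chr5:32136222-32136521, forward strand: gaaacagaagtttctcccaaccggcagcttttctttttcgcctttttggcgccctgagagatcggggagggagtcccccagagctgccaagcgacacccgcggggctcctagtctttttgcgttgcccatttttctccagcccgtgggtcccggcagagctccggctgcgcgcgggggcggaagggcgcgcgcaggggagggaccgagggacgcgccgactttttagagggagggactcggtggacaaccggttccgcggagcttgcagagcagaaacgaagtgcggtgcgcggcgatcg

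Searched on both strands, TGACG was found in 5 of the 8 promoters, against 20.8% of 32851 promoters of the same length. Fos held it at −129 to −125 and at −66 to −62 from the start. Dusp1 held it at −191 to −187 and as the full TGACGTCA at −143 to −136, an element that 1.79% of promoters hold and that contains TGACG on both strands. Fosb held TGACG at −60 to −56 and Junb at −106 to −102, and Atf3 held it on the other strand at −7 to −3. Jun, lower in every mouse, held no TGACG but TGACATCA at −45 to −38, a variant in 3.62% of promoters. Fosb, Junb and Atf3, which held TGACG, were not lower in every mouse. The AP-1 site TGANTCA and the CArG box, to which serum response factor binds, were each found in 0 of the 8 windows. Only 7.81% and 1.63% of promoters hold them, so 0 of 8 is near these shares. The count therefore cannot tell whether these genes lack such sites. Sequence outside the window, and the promoters of Egr1 and Ier2, were not searched. Fosl2 and Jund held none of the letters searched for in this window. A match is a run of letters in this window and was not compared with any binding data.

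Some properties of the libraries touch every result. Total counts ran from 12244373 to 38879965 per library, and counts of the members from 102 to 25334 per library. Levels are given as CPM, counts scaled to a common library size with TMM factors. Sprr1a, which checks the sort, had 1452 to 6903 counts in GFP+ and 10 to 406 in GFP− libraries. Mitochondrially encoded genes took 35.7% to 91.2% of counts in GFP+ and 9.20% to 61.9% in GFP− libraries, and 21A7 gave both the 91.2% (GFP+) and the 9.20% (GFP−). The 10 cardiomyocyte markers summed to 11176 to 43134 CPM in GFP+ and 4170 to 52605 CPM in GFP− libraries, with the lowest sum of each group in 21A7. The 7 fibroblast markers summed to 261 to 5121 CPM in GFP+ and 130 to 12061 CPM in GFP− libraries. In the GFP− library of 21A7 the fibroblast sum of 12061 CPM was above the cardiomyocyte sum of 4170 CPM, unlike in every other library. In these bulk samples, fewer cells of a type and less RNA per cell cannot be told apart.

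Among the Fos family, Fos encodes the inducible partner of Jun proteins. Fos had 42.2, 34.9, 89.4, 53.9 and 175 CPM in the GFP+ libraries of 17C1, 17C2, 21A4, 21A5 and 21A7, against 51.4, 61.3, 194, 193 and 409 CPM in the GFP− libraries of the same mice. The GFP+ value was below that of its own mouse in every pair, but the groups overlapped, because the 17C mice had low levels in both. The mean was 79.0 ± 57.5 CPM in GFP+ and 182 ± 144 CPM in GFP− cells (SD, n = 5 each). The log2 fold change was −1.20 ± 0.62 (SE) without pairing and −1.06 ± 0.28 with the mouse as a block (edgeR adjusted p = 0.652 and 0.134).

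Fosb encodes a close relative of Fos, with a shortened splice form known for its long life in neurons. Fosb had 35, 13.0, 22.9, 12.1 and 57.1 CPM in GFP+ libraries in the same mouse order, against 17.7, 22.6, 58.9, 43.1 and 192 CPM in GFP− libraries. It was below its GFP− partner in 4 mice and above it in 17C1. The difference within a mouse was 0.98 on the log2 scale in 17C1 and −1.83 in 21A5, and the fit over all mice gave −1.26 ± 0.67 unpaired and −1.0 ± 0.42 blocked (edgeR adjusted p = 0.659 and 0.300).

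Fosl2 encodes Fra-2, a Fos relative without the strong activation domain of Fos. Fosl2 had 19.1, 29.7, 29.7, 35.8 and 54.5 CPM in GFP+ libraries, against 10.8, 18.8, 29.4, 52.1 and 64.0 CPM in GFP− libraries. It was higher in GFP+ in both 17C mice, by 0.01 on the log2 scale in 21A4, and lower in 21A5 and 21A7. The fold change over all mice was −0.05 ± 0.46 unpaired and 0.14 ± 0.26 blocked on the log2 scale (edgeR adjusted p = 0.979 and 0.850).

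Among the Jun family, Jun encodes c-Jun, the phosphorylation target that gave the JNK kinases their name. Jun had 49.2, 46.3, 92.8, 68.0 and 138 CPM in GFP+ libraries, against 87.3, 79.5, 175, 139 and 267 CPM in GFP− libraries. Of all members it varied least between mice in its difference: −0.83, −0.78, −0.92, −1.03 and −0.95 on the log2 scale, a mean of −0.90 ± 0.10 (SD, n = 5). The fold change was −0.92 ± 0.43 unpaired and −0.90 ± 0.21 blocked (edgeR adjusted p = 0.613 and 0.0977).

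Junb encodes a Jun protein that often opposes c-Jun in growth control. Junb had 36.9, 37.8, 52.6, 36.0 and 85.8 CPM in GFP+ libraries, against 16.8, 24.6, 67.6, 77.5 and 142 CPM in GFP− libraries. It was higher in GFP+ in both 17C mice and lower in all 3 21A mice, so the mean difference was close to 0 (−0.40 ± 0.53 unpaired and −0.10 ± 0.35 blocked, edgeR adjusted p = 0.867 and 0.921). Jund, the steadily expressed Jun gene, had 15.0, 23.5, 24.1, 24.0 and 17.3 CPM in GFP+ libraries, against 15.1, 20.8, 28.3, 28.3 and 36.2 CPM in GFP− libraries. Only 21A7 had a difference beyond 0.25 in size, at −1.06 on the log2 scale. The fold change was −0.31 ± 0.28 unpaired and −0.27 ± 0.23 blocked (edgeR adjusted p = 0.797 and 0.640).

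Atf3 encodes a stress-induced bZIP factor that can repress its targets. Atf3 had 11.9, 11.4, 14.6, 13.4 and 22.6 CPM in GFP+ libraries, against 8.97, 10.5, 29.8, 19.6 and 51.6 CPM in GFP− libraries. It was slightly higher in GFP+ in both 17C mice (0.40 and 0.13 on the log2 scale) and lower in the 21A mice (−1.03, −0.55 and −1.19). Ier2, which encodes a small nuclear protein of the same early wave, had 12.4, 9.71, 20.5, 12.6 and 38.0 CPM in GFP+ libraries, against 7.36, 9.53, 33.1, 34.6 and 67.8 CPM in GFP− libraries. Its 17C values differed by 0.75 and 0.03 and its 21A values by −0.69, −1.45 and −0.83 on the log2 scale. Over all mice the log2 fold changes were −0.71 ± 0.46 for Atf3 and −0.71 ± 0.59 for Ier2 unpaired, and −0.46 ± 0.29 and −0.46 ± 0.32 blocked (edgeR adjusted p = 0.713 and 0.775, then 0.498 and 0.552).

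Egr1, the zinc finger factor, had 22.5, 29.9, 82.9, 59.6 and 171 CPM in GFP+ libraries, against 36.5, 57.2, 182, 185 and 458 CPM in GFP− libraries. It had the largest SD of the 10 genes in both groups, and its order over the mice was much like that of Fos. The mean was 73.3 ± 59.9 CPM in GFP+ and 184 ± 168 CPM in GFP− cells (SD, n = 5 each). The log2 fold change was −1.33 ± 0.72 unpaired and −1.17 ± 0.24 blocked (edgeR adjusted p = 0.665 and 0.0742).

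Dusp1, the MAP kinase phosphatase, had 31.4, 30.6, 54.6, 23.7 and 108 CPM in GFP+ libraries, against 101, 83.5, 103, 84.7 and 157 CPM in GFP− libraries. Only the GFP+ library of 21A7 reached the GFP− range. The mean was 49.7 ± 34.7 CPM in GFP+ and 106 ± 29.8 CPM in GFP− cells (SD, n = 5 each). Unlike the transcription factor genes, its GFP− level was similar in the 2 series, and its 17C differences of −1.68 and −1.45 on the log2 scale lay beyond those of 21A4 and 21A7. The fold change was −1.09 ± 0.43 unpaired and −1.28 ± 0.26 blocked (edgeR adjusted p = 0.549 and 0.0737), the smallest adjusted p of the 10 genes in both fits.

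**Figure D1:**
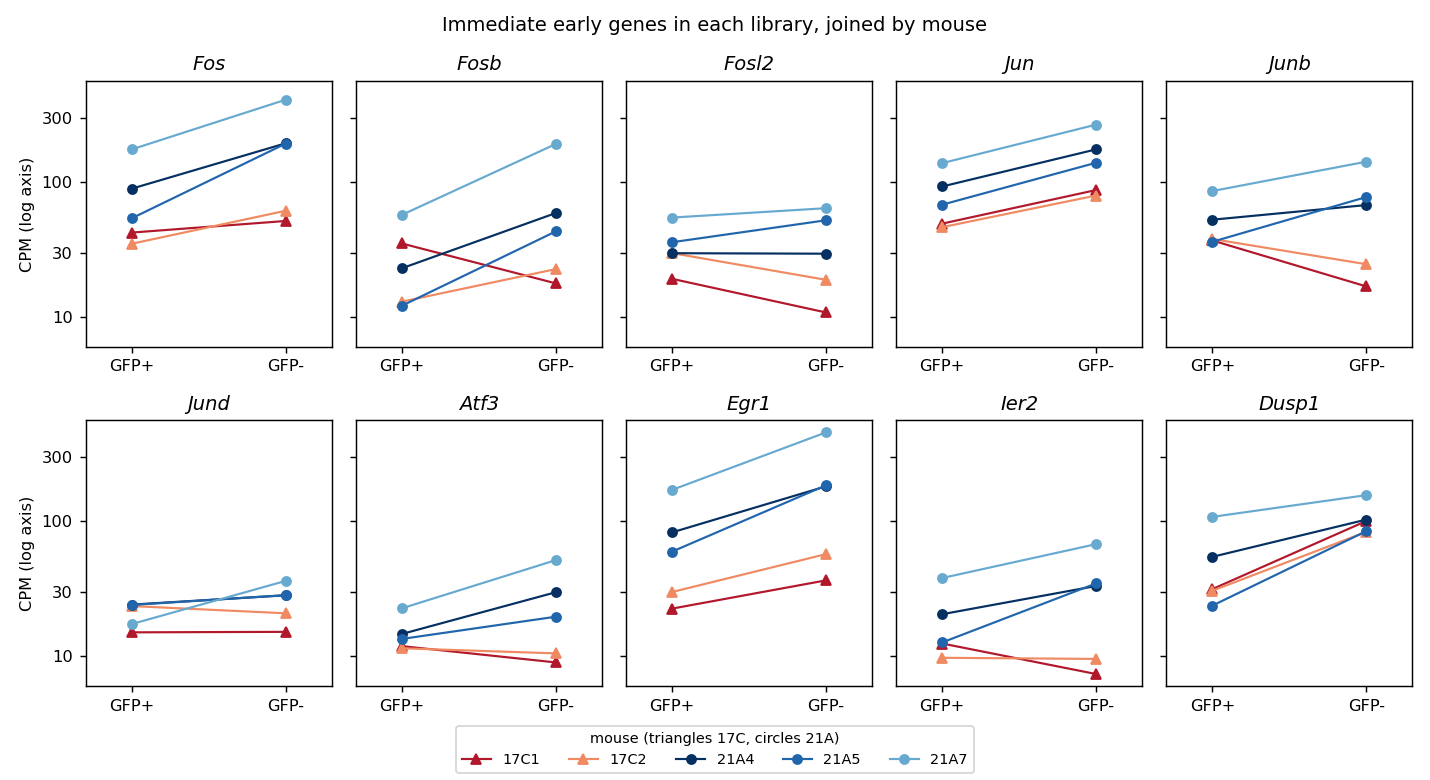
Level of each of the 10 genes in CPM (log axis) in the GFP+ and GFP− library of each mouse, joined by a line; triangles are 17C mice and circles 21A mice. The lines of Fos, Jun, Egr1 and Dusp1 run the same way in all 5 mice, with GFP+ lower, while those of Junb, Atf3 and Ier2 run opposite ways in the 17C and 21A mice. With libraries scaled to cardiomyocyte markers the 17C values of Fos, Jun and Egr1 turn positive but stay below the median tested gene, at 1.03 on the log2 scale.

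Counted over all mice, 0 of the 10 genes passed an adjusted p of 0.05 in the unpaired edgeR fit, in which 0.0825% of the tested genes did, and 1 (Dusp1) had an unadjusted p under 0.05, as 8.18% of the tested genes had. With the mouse as a block, 0 of 10 passed, against 0.858% of the tested genes, and 5 had an unadjusted p under 0.05, against 15.3%. In DESeq2 0 of 10 passed unpaired, with 2 at an unadjusted p under 0.05 (11.1% of the tested genes), and 4 fell with the block, against 3.60% of the tested genes lower there. These 4 were Dusp1, Egr1, Fos and Jun, at −1.30, −1.19, −1.08 and −0.92 on the log2 scale. The median log2 fold change of the 10 genes was −0.82 unpaired and −0.68 blocked, against −0.07 and −0.04 over all tested genes. Leaving out the GFP− library of 21A7 moved several unpaired values by over 1.5 times. Without it the median of the members was −0.31, Fosb was at −0.36, Fos at −0.69, Egr1 at −0.68, Atf3 at −0.25, Ier2 at −0.22 and Junb at 0.07 on the log2 scale, and Dusp1 at −0.91. The CPM ranges of the groups failed to overlap for 0 of 10 members and for 2.45% of the tested genes. A value lower in GFP+ in 5 of 5 mice was found for 4 of 10 members and for 8.02% of the tested genes.

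**Figure D2:**
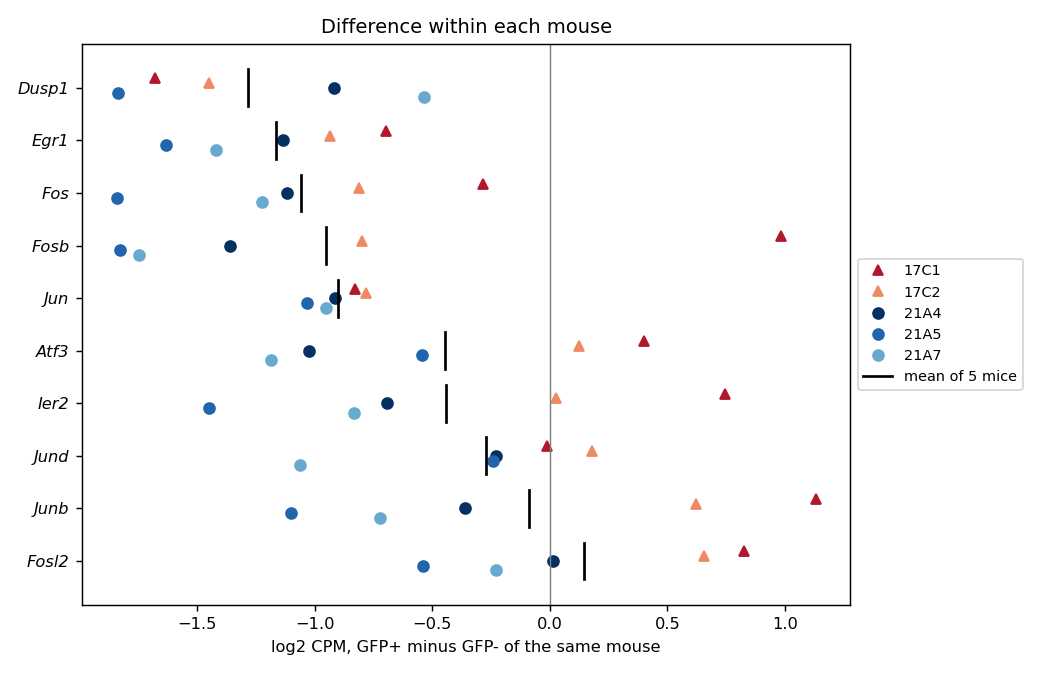
Difference within each mouse, GFP+ minus GFP− in log2 CPM, for each gene ordered by its mean (black bar, n = 5). Dusp1, Egr1, Fos and Jun have all 5 mice left of 0, with the 5 values of Jun between −1.03 and −0.78, while Junb, Ier2 and Atf3 have the triangles (17C) right and the circles (21A) left of 0, and both triangles lie right of all 3 circles for every gene but Dusp1.

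Each series was also tested alone. With so few mice the spread of a gene is estimated largely from that of other genes. The p-values of these fits therefore rest little on replication among mice, most of all with the block. In the 17C mice (2 per group), Dusp1 fell in GFP+ cells without pairing (−1.56 ± 0.24, edgeR adjusted p = 0.00558), 1 of 10 against 4.92% of the tested genes lower. With the block Dusp1 (−1.56 ± 0.27, edgeR adjusted p = 0.000347) and Jun (−0.80 ± 0.26, edgeR adjusted p = 0.0473) fell, 2 of 10 against 7.52% lower, and 0 of 10 rose, against 6.08% higher. Egr1 and Junb missed the threshold there on opposite sides, at −0.81 and 0.89 on the log2 scale (edgeR adjusted p = 0.0574 and 0.0548). The median of the 10 genes in that fit was 0.10, against −0.01 over all genes.

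In the 21A mice (3 per group), 0 of 10 passed without pairing, against 0.00% of the tested genes, with 4 members at an unadjusted p under 0.05 (12.3% of the tested genes). With the block, 6 of 10 fell in GFP+ cells, against 4.05% of the tested genes lower, and 0 rose, against 2.67% higher. Fosb fell by 1.63 ± 0.23 on the log2 scale, Egr1 by 1.38 ± 0.25 and Fos by 1.37 ± 0.27 (edgeR adjusted p = 0.00681, 0.0165 and 0.0189). Ier2 fell by 0.97 ± 0.23, Jun by 0.95 ± 0.23 and Atf3 by 0.90 ± 0.23 (edgeR adjusted p = 0.0354, 0.0443 and 0.0465). Dusp1 at −1.07 ± 0.29 and Junb at −0.71 did not pass (edgeR adjusted p = 0.0573 and 0.106). The median was −0.96 in that fit, against −0.06 over all genes. Leaving out a mouse within a series was not run.

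The difference between the series was itself tested with an interaction term, chosen after the data were seen. Only Junb passed, 1 of 10 against 7.62% of the tested genes, with a difference of −1.61 ± 0.36 on the log2 scale, 21A minus 17C (edgeR adjusted p = 0.0337). Fosb at −1.75, Ier2 at −1.39, Atf3 at −1.19 and Fosl2 at −1.0 did not pass (edgeR adjusted p = 0.0607, 0.0604, 0.0764 and 0.0921). Jun differed by −0.16 ± 0.32 and Dusp1 by 0.47 ± 0.42 (edgeR adjusted p = 0.806 and 0.533).

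**Figure D3:**
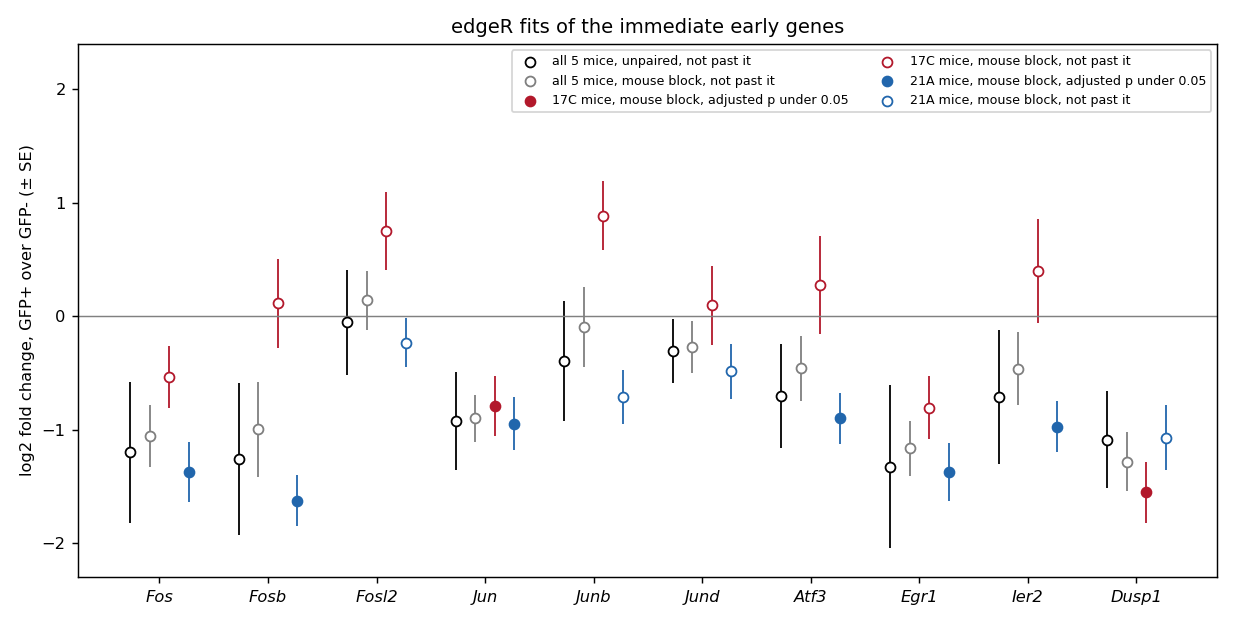
log2 fold change, GFP+ over GFP−, with its standard error from edgeR, for each gene in 4 fits: all 5 mice unpaired (black) and blocked by mouse (grey), 17C mice blocked (red) and 21A mice blocked (blue). Filled points passed an adjusted p of 0.05: Jun and Dusp1 in 17C, and Fos, Fosb, Jun, Atf3, Egr1 and Ier2 in 21A.

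The ratio of the series' mean levels was smaller in GFP+ than in GFP− cells for 9 of the 10 genes. The mean CPM of the 21A over the 17C mice was 2.75 times in GFP+ and 4.71 times in GFP− cells for Fos, 3.99 and 5.87 times for Egr1, and 1.56 and 4.62 times for Junb. Dusp1 was the other one, at 2.0 times in GFP+ and 1.25 times in GFP− cells, and Jun had close ratios, at 2.09 and 2.32 times. These are descriptions of 2 and 3 mice, with no test.

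Of the cell type markers, the fibroblast and cardiomyocyte sums turned direction between the series, in opposite ways. The macrophage and endothelial sums were lower in GFP+ in all 3 21A mice and mixed in the 17C mice. The 10 genes summed to 276, 267, 484, 339 and 868 CPM in GFP+ libraries of 17C1, 17C2, 21A4, 21A5 and 21A7, against 353, 388, 901, 857 and 1844 CPM in GFP− libraries. Fibroblast markers summed to 261, 315, 2052, 1756 and 5121 CPM in GFP+ libraries, against 130, 283, 6504, 10772 and 12061 CPM in GFP− libraries, so they were lower in GFP+ in the 21A mice and higher in the 17C mice. Macrophage markers summed to 60.6 to 286 CPM in GFP+ and 255 to 608 CPM in GFP− libraries of the 21A mice, and to 20 to 37.8 CPM in GFP+ and 20.3 to 25.7 CPM in GFP− libraries of the 17C mice. Endothelial markers summed to 130 to 267 CPM in GFP+ and 453 to 510 CPM in GFP− libraries of the 21A mice, and to 35.2 to 63.6 CPM in GFP+ and 58.6 to 83.3 CPM in GFP− libraries of the 17C mice. In all 3 21A mice, 7 of 7 fibroblast, 7 of 7 macrophage and 5 of 7 endothelial markers were lower in GFP+, against 24.7% of the tested genes. In both 17C mice, 0 of 7 fibroblast, 2 of 7 macrophage and 2 of 7 endothelial markers were, while 8 of 10 cardiomyocyte markers were lower in GFP+. Of the tested genes 33.3% were lower in both 17C mice, close to the macrophage and endothelial shares.

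The 5 mural markers summed to 91.7 to 144 CPM in GFP+ and 27.9 to 353 CPM in GFP− libraries, and the 5 mesothelial markers to 79.5 to 312 CPM in GFP+ and 0.718 to 145 CPM in GFP− libraries. The mesothelial sum was higher in GFP+ in 5 of 5 mice, so it moved against Fos, Jun, Egr1 and Dusp1. Neutrophil markers summed to 9.5 CPM or less in GFP+ and 11.5 CPM or less in GFP− libraries. The lymphocyte markers Cd3e and Ms4a1 were at 0 in every library. The part of these other cell types in the immediate early levels was not tested beyond a covariate. With the mean log2 CPM of fibroblast, macrophage, endothelial and mural markers in the model, Dusp1 was at −1.0, Jun at −0.58, Egr1 at −0.51 and Fos at −0.49 unpaired, and at −1.30, −0.84, −0.91 and −0.60 with the block. Fosb, Atf3 and Jund were at −0.47, −0.13 and −0.11 unpaired and at −0.08, −0.08 and −0.24 with the block. Fosl2, Junb and Ier2 were at 0.54, 0.38 and 0.12 unpaired and at 0.55, 0.59 and 0.22 with the block. The median of the 10 genes was −0.30 unpaired and −0.16 with the block, against −0.82 and −0.68 without the covariate. In these edgeR fits 0 of 10 passed, against 52 and 0 of all 12115 tested genes. An unadjusted p under 0.05 was found for 1 and 3 members, against 13.7% and 18.8% of the tested genes. In 17C1 and 17C2 the differences of −1.68 and −1.45 for Dusp1 stood beside differences of the summed markers of 1.01 and 0.15 for fibroblasts, 0.56 and −0.02 for macrophages, 0.12 and −1.24 for endothelium and −1.10 and −0.95 for cardiomyocytes, all on the log2 scale. Scaled to the cardiomyocyte markers, Dusp1 no longer passed in these mice (−0.55, edgeR adjusted p = 0.225). That scaling put the median tested gene at 1.03 in these mice, so Dusp1 stayed below it.

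**Figure D4:**
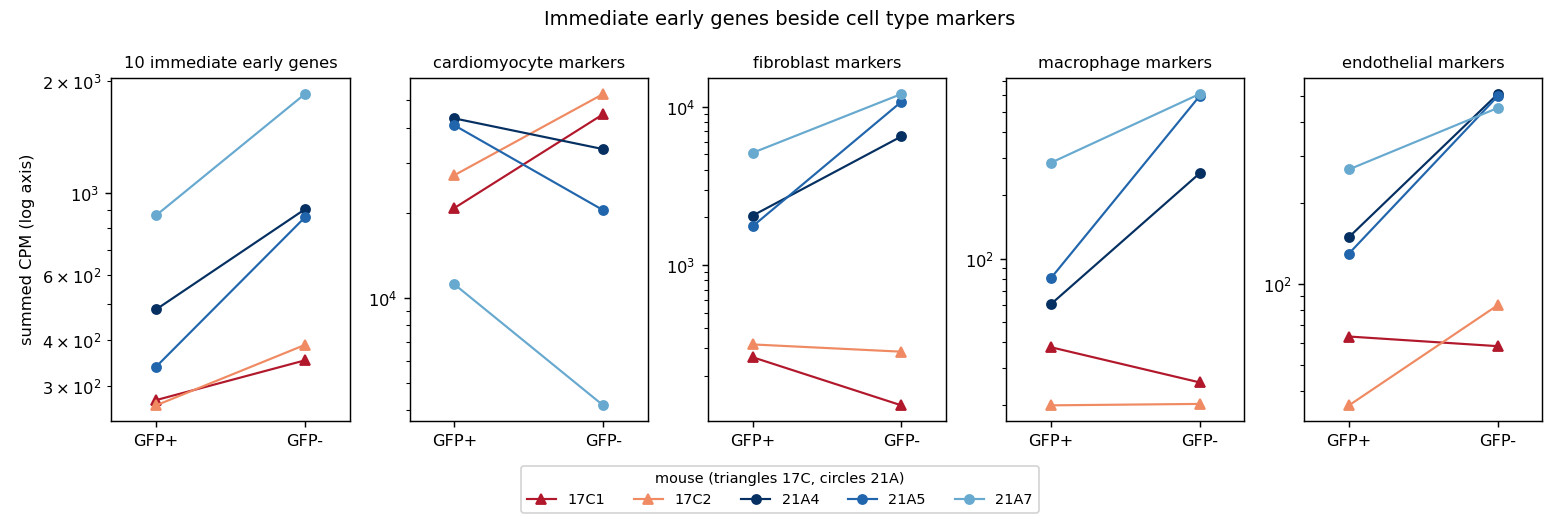
Summed CPM (log axis, own range per panel) of the 10 immediate early genes and of 4 marker lists in the GFP+ and GFP− library of each mouse, joined by a line. The immediate early sum is lower in GFP+ in all 5 mice, whereas the fibroblast sum is lower in GFP+ in the 21A mice (circles) and higher in the 17C mice (triangles), and the cardiomyocyte sum runs the other way.

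Scaling set the size and part of the direction. With libraries scaled by size alone, the median tested gene was at −1.24 and the median member at −2.70, and 5 members (Dusp1, Egr1, Fos, Fosb and Jun) fell, against 5.15% of the tested genes lower there. With libraries scaled to the 10 cardiomyocyte markers, chosen after the data were seen, the median tested gene was at −0.69 and the median member at −1.94 over all mice, unpaired. In the 17C mice alone that scaling put the median tested gene at 1.03. There 6 members rose in GFP+, against 28.7% of the tested genes higher: Junb by 1.91, Fosl2 by 1.75, Ier2 by 1.46, Fosb by 1.38, Atf3 by 1.3 and Jund by 1.11. Fos at 0.51, Jun at 0.23 and Egr1 at 0.20 turned positive and Dusp1 stayed at −0.55, all 4 below the median gene of that scaling and none past the test.

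A ratio of counts within a library does not depend on the scaling. Fosl2 was used as the denominator after the values were seen, so the ratios are a description. It was itself higher in GFP+ in 3 of 5 mice, which lowers every ratio to it in those mice. The ratio of Fos to Fosl2 was 2.20, 1.17, 3.01, 1.51 and 3.21 in GFP+ libraries, against 4.78, 3.26, 6.60, 3.71 and 6.39 in GFP− libraries, and the groups did not overlap. The ratio of Egr1 to Fosl2 was 1.01 to 3.14 in the GFP+ and 3.04 to 7.15 in the GFP− libraries, that of Jun 1.56 to 3.13 in the GFP+ and 2.68 to 8.11 in the GFP− libraries, and that of Dusp1 0.662 to 1.98 in the GFP+ and 1.63 to 9.35 in the GFP− libraries. Each of these 4 ratios was lower in GFP+ in 5 of 5 mice, and that of Fosb in 4. With Jund as the denominator, the ratios of Fos and Egr1 were lower in GFP+ in 5 of 5 mice and those of Jun and Dusp1 in 4. The groups overlapped for all 4 of these ratios to Jund. How many of all tested genes would have such ratios lower in every mouse, or without overlap, was not counted. The ratios show unequal differences between genes, and neither denominator is known to be constant.

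**Figure D5:**
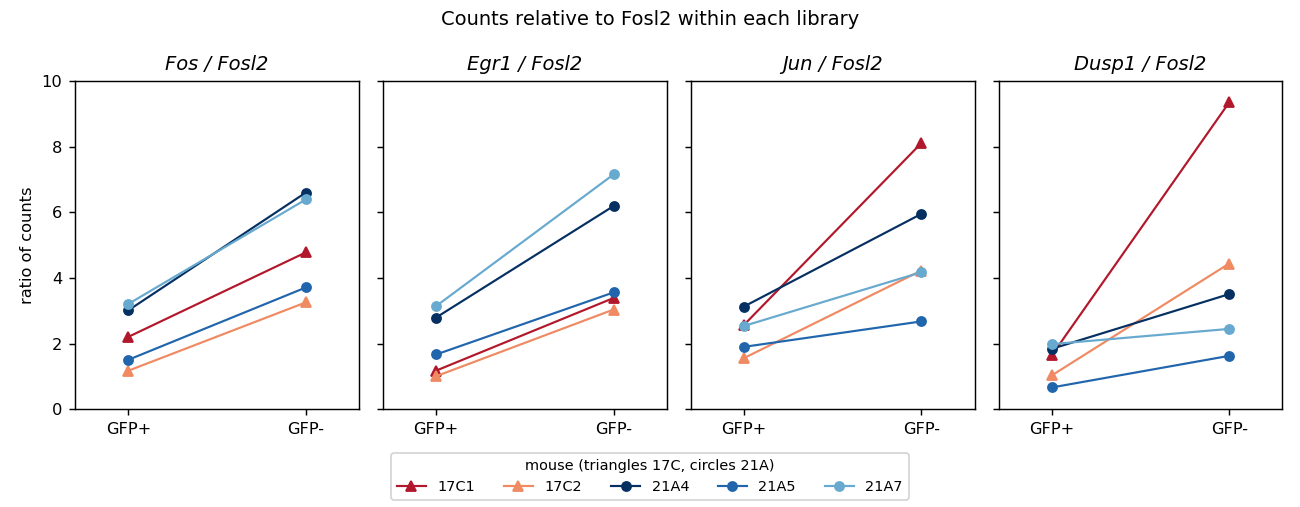
Ratio of the counts of Fos, Egr1, Jun and Dusp1 to those of Fosl2 in the GFP+ and GFP− library of each mouse, joined by a line. All 20 lines end lower in GFP+, and only the Fos panel has groups that do not overlap, with 3.21 as the highest GFP+ and 3.26 as the lowest GFP− value. Fosl2 was chosen after the values were seen, and with Jund as the denominator the groups of Fos overlap.

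Per kilobase of annotated exons, the levels of the 10 genes kept a similar order in both groups. In GFP+ cells Fos came highest at 33.6 CPM per kb, followed by Jun at 24.7, Junb at 21.7, Egr1 at 16.3, Dusp1 at 15.0, Jund at 12.5, Ier2 at 12.2, Atf3 at 6.86, Fosb at 4.49 and Fosl2 at 3.49. Of these neighbours, Fos was above Jun and Ier2 above Atf3 in 5 of 5 GFP+ libraries, and the other pairs changed places in at least 1 library. In GFP− cells Fos was at 77.3 CPM per kb, Jun at 46.9, Egr1 at 41.0, Dusp1 at 31.9, Junb at 28.5, Ier2 at 20, Jund at 15.4, Atf3 at 11.2, Fosb at 10.7 and Fosl2 at 3.62. There Junb was above Ier2 and Fosb above Fosl2 in 5 of 5 libraries, and the other neighbours changed places in at least 1.

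Across the 10 libraries, the profile of Fos (log2 CPM less its mean) was nearest among members to that of Egr1, with a root mean square difference of 0.30, and farthest from Jund, at 0.92. Among 4750 other genes of at least 10 CPM on average, Foxp1 (0.25), Zfp36l1 (0.27) and P3h1 (0.28) lay nearest to Fos, and Cgnl1 (0.16), Zfp36 (0.29) and Foxp1 (0.31) nearest to Egr1. Kdm6b (0.19), Nsd2 (0.25) and Ctcf (0.25) lay nearest to Jun, and Ssrp1 (0.26) and Ncapd2 (0.27) near to Atf3. Among Fos, Jun, Egr1, Atf3 and Dusp1, the only members whose neighbours were sought, Dusp1 lay farthest from its nearest member. Its nearest member was Jun, at 0.46, and its nearest other genes were Tnfaip2 (0.26), Hnrnpd (0.33) and Irf2bp2 (0.37). These likenesses share libraries, depth and the split between series.

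Of 16 other AP-1 and ATF subunit genes, 12 were tested over all mice. The most abundant, Atf6 and Atf4, factors of the stress response of the endoplasmic reticulum and of amino acid shortage, were at 34.6 ± 9.24 and 17.8 ± 2.65 CPM in GFP+ cells, against 46.1 ± 18.6 and 30.1 ± 12.5 CPM in GFP− cells, and neither passed. The list's median was −0.42 with the block, against −0.04 over all genes. Named after their values were seen, Atf5, Atf6 and Batf3 fell in the 17C mice with the block, and in the 21A mice Jdp2 fell and Mafk rose.

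Of 49 other immediate early and rapid stress genes, 47 were tested over all mice. Of these 0 rose and 0 fell in the unpaired and in the blocked edgeR fit, which 0.0825% and 0.858% of all tested genes passed. Rgs2, a brake on G protein signalling, came nearest, at 2.62 ± 1.37 CPM in GFP+ and 11.3 ± 2.88 CPM in GFP− cells (SD, n = 5; −2.17 ± 0.41 blocked, edgeR adjusted p = 0.0550), followed by Zfp36, which encodes an mRNA-destabilizing protein (−1.14 ± 0.22, edgeR adjusted p = 0.0637). The most abundant were the matrix-associated Ccn2, at 196 ± 62.5 CPM in GFP+ and 82.2 ± 70.8 CPM in GFP− cells, and Ccn1, at 100.4 ± 26.5 CPM in GFP+ and 132 ± 47.4 CPM in GFP− cells.

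In the 17C mice with the block, 8 of 45 tested genes of that list rose, against 6.08% of all tested genes, 1 fell, against 7.52%, and the median was 0.40. In the 21A mice with the block, 0 of 47 rose, 17 fell, against 4.05% of all tested genes, and the median was −0.91, against −0.06 over all genes. Named after their values were seen, the genes that rose in 17C included Ccn2 (3.15), Hbegf (2.61), an EGF receptor ligand, and Plk2 (2.34). Those that fell in 21A included Ptgs2 (−2.09), which encodes an inducible cyclooxygenase, Klf4 (−1.87) and Nr4a1 (−1.70). Rgs2 was the only one called in both series, at −2.93 in 17C and −1.64 in 21A.

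Of the upstream factor genes, 12 of 12 were tested and 0 rose or fell over all mice in the unpaired and in the blocked edgeR fit. Crtc2, a CREB coactivator, and Mrtfb, a coactivator of serum response factor, had the smallest adjusted p (0.294 and 0.340, edgeR with block), and Srf, which encodes serum response factor itself, was at 36.9 ± 13.5 CPM in GFP+ and 31.6 ± 7.72 CPM in GFP− cells. Of 28 MAP kinase cascade genes, 27 were tested and 0 rose or fell over all mice in both edgeR fits. The smallest adjusted p were those of Map2k1, the kinase above ERK (0.96 ± 0.22, edgeR adjusted p = 0.10 blocked), and Mapk14, the p38 alpha kinase (−0.81 ± 0.24, edgeR adjusted p = 0.178). The most abundant, Mapkapk2, was at 125 ± 27.3 CPM in GFP+ and 124 ± 62.5 CPM in GFP− cells. Of 14 other MAP kinase phosphatase and Sprouty genes, 13 were tested and 0 rose or fell over all mice in both edgeR fits. Spred2 and Dusp7 came nearest, at −1.18 and −0.41 on the log2 scale (edgeR adjusted p = 0.108 and 0.471 blocked). Over all mice 0.0825% of the tested genes passed unpaired and 0.858% blocked, so 0 in lists this short is near that share. In the blocked 17C fit Map2k1 and Mapk12 rose (2 of 25, against 6.08%). Mapk14, Map3k1 and Map3k5 (3 of 25) and Dusp8 (1 of 12) fell there, against 7.52%. In the blocked 21A fit Elk3 (1 of 12) and Spry1 (1 of 13) fell, against 4.05%. These were named after their values were seen.

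Heat shock genes are listed beside immediate early genes in dissociation signatures. All 13 taken here were tested, and 1 rose and 0 fell with the block over all mice. Of all 12115 tested genes 83 rose and 21 fell there. Hspb1, a small heat shock protein gene abundant in muscle, had 158, 200.3, 179, 299 and 75.9 CPM in GFP+ libraries, against 58.0, 64.5, 40.3, 87.0 and 31.8 CPM in GFP− libraries (1.65 ± 0.24, edgeR adjusted p = 0.0318 blocked and 0.173 unpaired). It thus lay above its GFP− partner in 5 of 5 mice, as 9.14% of the tested genes did, the side opposite to Fos, Jun, Egr1 and Dusp1. It does not stand for the list, of which 8 of 13 genes were below 0 with the block. The most abundant, Hsp90ab1 and Hspa8, were at 696 ± 161 and 631 ± 124 CPM in GFP+ cells, against 640 ± 63.0 and 569 ± 138 CPM in GFP− cells, and did not pass. The list's median was −0.15 with the block, against −0.04 over all genes.

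Of 12 textbook AP-1 target genes, 8 had enough counts to be tested over all mice. Of these 0 rose or fell in the unpaired and in the blocked edgeR fit, which 0.0825% and 0.858% of all tested genes passed. Spp1, which encodes osteopontin and is high in macrophages after infarction, had 22.2 ± 24.9 CPM in GFP+ and 100.2 ± 94.1 CPM in GFP− cells (SD, n = 5; edgeR adjusted p = 0.0792 blocked). Plau, the urokinase gene, had the next smallest adjusted p, at 0.203 with the block. Timp1, an inhibitor of matrix proteases, had 53.9, 62.8, 37.5, 39.5 and 202 CPM in GFP+ libraries, against 1.5, 4.72, 24.4, 43.1 and 124 CPM in GFP− libraries. In the 17C mice with the block 4 of 6 tested targets rose (Timp1, Cd44, Ccnd1 and Hmox1), against 6.08% of all tested genes, and 2 fell (Spp1 and Vegfa), against 7.52%. In the 21A mice 1 of 11 fell (Spp1), against 4.05%, and 0 rose. These were named after their values were seen.

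The kit does not mark strand, so reads from a stretch that genes share cannot be told apart. Overlap was taken between whole gene spans, and shared exons were not looked for. In GENCODE M21 on GRCm38, Fos, Fosb, Fosl2, Egr1 and Ier2 overlap 0 other genes. Jun lies opposite Junos, which had at most 0.217 CPM in GFP+ and 0.850 CPM in GFP− libraries. Junb overlaps Prdx2 on the other strand, a peroxidase gene at 77.4 ± 15.1 CPM in GFP+ and 92.7 ± 57.9 CPM in GFP− cells. Its differences were −0.99 and −0.61 on the log2 scale in the 17C mice and 0.21, 0.67 and 0.46 in the 21A mice, the opposite sign of those of Junb in all 5. Dusp1 overlaps 4 annotated genes, of which Ergic1 was at 24.9 ± 5.90 CPM in GFP+ and 21.1 ± 6.89 CPM in GFP− cells. Jund and Atf3 each overlap 1 gene model, Gm11175 and Gm24748. The levels of Junb and Dusp1 are the more uncertain for this, to an extent that was not measured.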

How the data were processed

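Transcript levels were measured in 10 RNA libraries of sorted cells from 5 mice, 1 GFP+ and 1 GFP− library each. Per the labels' protocols, 1 ng of total RNA was amplified with SMARTer chemistry and made into Nextera XT libraries, which carry no strand. The authors deposited raw counts of reads for each gene. Per the submitters' processing notes, the build was GRCm39 and the tools included featureCounts, Subread 2.0.1, STAR 2.7.9a and fastp 0.23.1. How multi-mapping reads were counted, on which strand and against which annotation, is not given in the sources used here. Without molecular identifiers, PCR copies count as reads.

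Counts were tested over all genes with edgeR 4.0.16, run in R 4.3.3, by its quasi-likelihood test (TMM factors, filterByExpr, Benjamini-Hochberg adjusted p under 0.05), unpaired as the main fit. An alternative fit took the mouse as a block. A standard error is the size of the log2 fold change over the root of the F statistic, and log2 CPM values use a prior count of 2. The mouse identifiers in the titles pair the libraries. Across genes, the departures of a mouse's GFP+ and GFP− libraries from their group means correlated with r = 0.292, 0.397, 0.161, 0.0741 and 0.637 (17C1, 17C2, 21A4, 21A5 and 21A7). Alternatives were DESeq2 1.42.0, other scalings and filters, removal of mitochondrial genes, each series alone, a covariate of non-myocyte markers, and each mouse or library left out. Overlaps and exon lengths come from GENCODE M21 and promoters from RefSeq, both on the earlier build GRCm38.

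The members and lists were chosen with earlier results of these data known. Of each other list, genes were named that passed over all mice, or else the 2 with the smallest adjusted p in the blocked fit, and 1 or 2 with the highest mean CPM. For 5 members the nearest profiles were named, up to 3 each. Results of 3 genes that these rules or the lists cover are not reported here. The members were described in every library.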

Additional observations from a re-analysis of the deposited data

Results flagged for a closer look

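In 20 groups of 5 libraries (10 genes in GFP+ and in GFP−), the highest or lowest library was set against the rest by its gap over the range, with 0.71 as the limit. Chance passes about 1 in 20 such groups. The Atf3 level of 22.6 CPM in the GFP+ library of 21A7 stood apart, at a ratio of 0.717. The GFP− library of the same mouse stood apart for Fosb at 192 CPM (0.763) and for Dusp1 at 157 CPM (0.732). That mouse also had the 91.2% mitochondrial share in GFP+ and the 9.20% share in GFP− cells, and its fibroblast markers were the highest of each group, at 5121 CPM in GFP+ and 12061 CPM in GFP− cells. Their part in these values was not tested.

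For 3 genes every 17C mouse had a higher and every 21A mouse a lower value in GFP+ than in GFP− cells. The difference of the fold changes, 21A minus 17C, was −1.61 on the log2 scale for Junb, −1.39 for Ier2 and −1.19 for Atf3 (edgeR interaction adjusted p = 0.0337, 0.0604 and 0.0764), so only that of Junb passed.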

How the results depend on the processing

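Limits: the GFP+ libraries join 2 DAPI gates, the series hold 2 and 3 mice, and libraries differ widely in mitochondrial and fibroblast RNA, whose part in the changes below was not tested in full. Removal of mitochondrial genes left Fos at −1.19 and Egr1 at −1.32. Against 0 of 10 members passing in the main fit, 4 passed in DESeq2 with the mouse block, 5 with library size alone, 1 in the 17C mice and 2 there with the block, 6 there with scaling to cardiomyocyte markers (higher) and 6 in the 21A mice with the block. With the replicate block over all mice, the count of members passing was 0. Leaving out mice or libraries gave 0 to 1, the 1 being Fosb at −1.44 in the blocked fit without 17C1. The cause of these changes was not tested.

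Direction turned, on the log2 scale, as follows. In the 17C mice unpaired, values were 0.26 for Fosb, 0.74 for Fosl2, 0.86 for Junb, 0.12 for Jund, 0.27 for Atf3 and 0.40 for Ier2. With the block there they were 0.11, 0.75, 0.89, 0.094, 0.27 and 0.40 in that order, and with scaling to cardiomyocyte markers 1.38, 1.75, 1.91, 1.11, 1.3 and 1.46, beside 0.51 for Fos, 0.23 for Jun and 0.20 for Egr1. That scaling put the median tested gene at 1.03 in the 17C mice. With the non-myocyte covariate Fosl2 was at 0.54, Junb at 0.38 and Ier2 at 0.12, and at 0.55, 0.59 and 0.22 with the block. Fosl2 was at 0.14 with the block, 0.12 in DESeq2 with the block and 0.14 with the block after removal of mitochondrial genes. Over the omissions Fosl2 ranged from −0.28 to 0.29 and Junb from −0.68 to 0.14. Dusp1 was negative under every alternative run. Of the members' values under alternatives other than omissions, 142 kept direction and side of the threshold, 18 passed it in the same direction and 30 turned; of those under omissions, 187 kept both, 1 passed and 12 turned.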
